A study of Mus musculus with 6 samples.

Results

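Keratins and vimentin are the main intermediate filament proteins of epithelial and mesenchymal cells, and 8 of their genes, Krt7, Krt8, Krt10, Krt18, Krt19, Krt20, Krt23 and Vim, are described here out of 10616 genes in a count table of a mouse pancreatic cancer cell line. The 8 genes were chosen from the keratins and vimentin with earlier results of the same comparison known, so their differences between groups are given as a description without p-values. The KPC line, grown from a mouse pancreatic ductal adenocarcinoma, was infected with lentivirus carrying a pLKO.1 short hairpin RNA against mouse Brca2 (shBrca2, 3 libraries) or a non-targeting hairpin (shControl, 3 libraries). Both groups therefore carried a viral vector, went through puromycin selection, were grown in flat culture and were sorted for live cells that excluded propidium iodide. Both groups are versions of a single line, and the study's supplement counts the 3 libraries of a group as mice while describing cells kept in culture. What separates the libraries of a group is therefore unclear, and p-values measure only the spread between these libraries. The comparison asks how the mRNA of cancer cells differed when Brca2, a gene of DNA repair by homologous recombination, was knocked down.

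Keratins form filaments as pairs of an acidic type I protein and a basic type II protein. In simple epithelia, such as the ducts of the pancreas, the type II protein is mainly Krt8, joined by Krt7 in ducts, and the type I partners are Krt18 and Krt19. Krt20 and Krt23 are type I keratins of gut and glandular epithelia, and Krt10 is a type I keratin best known from differentiating epidermis. Vimentin, a type III filament protein, assembles without keratins, is typical of mesenchymal cells, and is also made by many carcinoma cells in culture.

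The libraries held 1519340 to 2452467 counts each, and the totals did not separate the groups (exact two-sided permutation test, p = 0.8, where 0.1 is the smallest p that 3 against 3 can give). The counts were obtained from a protocol that captures the 3′ ends of polyadenylated mRNA, so the length of a transcript does not enter its count, and levels are given below as normalized counts, that is counts divided by the DESeq2 size factor of the library. With its own hairpin Brca2 had 10, 11 and 14 counts, and with the control hairpin 33, 52 and 33, a log2 fold change of -1.61 ± 0.44 (SE; DESeq2 adjusted p = 0.0290). Its log2 fold change was -1.46 to -1.70 with a library left out, and the call was lost without the shBrca2 libraries 2 and 3 and the shControl library 2 (DESeq2 adjusted p = 0.152, 0.233 and 0.371). On the first principal component of 9011 genes, which held 40.9% of the variance, the shControl library 3 stood apart with a score of 0.74, where the others lay between -0.43 and 0.26. Ductal markers were present, 9 of 10 being in the table, with Epcam at only 3 to 10 counts in a library and Cftr absent from the table. Of 12 fibroblast markers 3 were in the table, summing to 21.8 to 28.4 normalized counts in shBrca2 and 18.4 to 45.5 in shControl, and of 8 leukocyte markers only Cd14 was, at 205 to 350 and 318 to 453. None of 5 endothelial markers and 2 of 8 acinar markers were in the table, the latter summing to 34.1 to 64.4 and 38.4 to 52.0 normalized counts.

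The 8 genes lie in 3 places of the mouse genome, given here as in RefSeq GRCm38.p6, the same build as the mm10 named in the submitters' processing notes. The type II genes Krt7 (chr15:101412403-101427806, plus strand) and Krt8 (chr15:101996711-102004342, minus strand) stand in the keratin cluster of chromosome 15. Krt18, although of type I, is in the same cluster at chr15:102028216-102032026 on the plus strand, 23.9 kb from Krt8. The type I genes Krt10, Krt20, Krt23 and Krt19 are in the cluster of chromosome 11, between 99385254 and 100145926, and Vim is at chr2:13574311-13582826 on the plus strand. Krt7, Krt8, Krt10, Krt19 and Vim each overlap an annotated gene on the opposite strand, and whether counting used the strand is not given in the sources used here, so reads of those partners cannot be told apart. Krt8 also has a processed pseudogene on another chromosome that could share its reads.

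The promoters of Krt7, of the pair Krt8 and Krt18, and of Vim are printed to set the gene that differed most between groups beside the abundant filament genes. Each runs from 250 bases before the gene start to 50 after it, 5′ to 3′ on the gene's strand, at chr15:101412153-101412452 for Krt7, chr15:102004293-102004592 for Krt8, chr15:102027966-102028265 for Krt18 and chr2:13574061-13574360 for Vim. Capitals mark, on either strand, the GC box, whose letters are GGGCGG. They also mark the TATA box, spelled TATAAA, and the CCAAT box, named by its letters. The AP-1 site, TGANTCA, was searched as well, and this set of motifs was picked after the counts were seen.
Krt7: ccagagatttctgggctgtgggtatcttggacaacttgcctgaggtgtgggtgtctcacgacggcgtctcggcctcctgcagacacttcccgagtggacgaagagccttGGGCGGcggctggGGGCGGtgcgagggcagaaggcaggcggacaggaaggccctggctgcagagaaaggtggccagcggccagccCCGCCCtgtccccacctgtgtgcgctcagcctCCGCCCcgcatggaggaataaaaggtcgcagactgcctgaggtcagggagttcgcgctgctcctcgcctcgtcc
Krt8: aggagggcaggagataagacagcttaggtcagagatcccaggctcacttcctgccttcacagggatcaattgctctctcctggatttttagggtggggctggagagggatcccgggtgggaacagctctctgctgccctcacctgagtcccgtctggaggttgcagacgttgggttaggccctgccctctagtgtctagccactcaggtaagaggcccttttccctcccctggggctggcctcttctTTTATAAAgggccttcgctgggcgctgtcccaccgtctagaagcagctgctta
Krt18: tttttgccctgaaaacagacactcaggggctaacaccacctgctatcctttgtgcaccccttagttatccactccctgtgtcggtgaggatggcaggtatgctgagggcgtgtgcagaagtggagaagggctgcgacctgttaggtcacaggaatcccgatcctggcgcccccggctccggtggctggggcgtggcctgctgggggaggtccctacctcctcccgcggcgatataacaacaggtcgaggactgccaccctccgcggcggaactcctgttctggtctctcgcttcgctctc
Vim: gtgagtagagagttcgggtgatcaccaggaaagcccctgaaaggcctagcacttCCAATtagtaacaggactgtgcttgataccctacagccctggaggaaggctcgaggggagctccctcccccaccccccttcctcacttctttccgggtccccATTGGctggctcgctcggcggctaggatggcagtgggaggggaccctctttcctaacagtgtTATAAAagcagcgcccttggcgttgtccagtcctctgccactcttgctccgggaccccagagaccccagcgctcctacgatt

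The Krt7 window held 4 GC boxes, the hexamer bound by Sp1-type factors, against 35.7% of 32851 promoters of the same length with at least 1 and 5.49% with at least 4, and it held no TATAAA. Among the 10888 promoters of genes in the count table, 63.9% held a GC box, and the share of these with at least 4 was not computed. The Krt8 window held a single stretch, TTTATAAA, that reads as TATAAA on both strands, and the Vim window held a TATA box and a pair of CCAAT boxes. The Krt8 matches lay at offsets of -3 and -1 from the annotated gene start. Those of Krt20 and Vim lay at -29 and -32. The Krt10 match lay at -26 from the start on which its window, chr11:99389315-99389614, was built. That start is inside the annotated gene, which runs from 99385254 to 99397449 on the minus strand, and is not its annotated start. The Krt18 window held none of these motifs. Promoters were matched for 7 of the 8 genes, and TATAAA stood in 4 of the 7, against 13.6% of all promoters and 7.02% of those of table genes. GGGCGG was found in 1 of the 7, CCAAT in 2 and TGANTCA in 0, against 37.4% of all promoters for CCAAT and 7.81% for TGANTCA. These are letter matches, not sites shown to be bound.

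Keratins and Vim were among the most abundant mRNAs of these cells. By mean normalized count over the 6 libraries, Krt18 ranked 13 of 10616 genes, Vim 15, Krt19 50 and Krt8 83. Krt23 and Krt20 followed at ranks 716 and 718, Krt7 at 1677 and Krt10 at 6249. Krt18 and Vim did not differ beyond their spread, Krt18 being the higher in 4 of 6 libraries. Vim was 2.07-fold above Krt19 and higher in 6 of 6. Krt19 exceeded Krt8 within 6 of 6 libraries, although the lowest Krt19 value, 3655, was under the highest Krt8 value, 3764. Krt20 and Krt23 did not differ beyond their spread, Krt23 being the higher in 2 of 6 libraries, while Krt7 was below Krt20 in 6 of 6 and above Krt10 in 6 of 6.

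**Figure D1:**
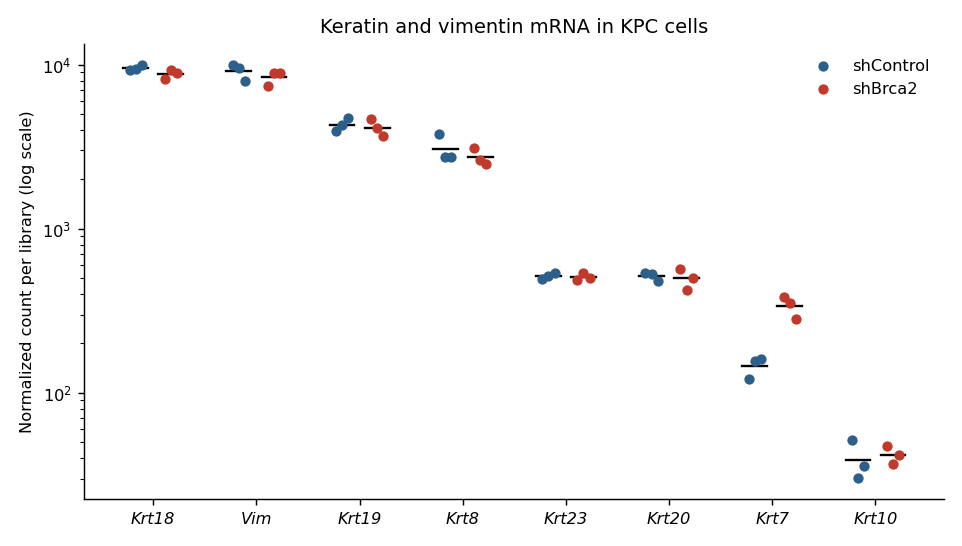
Normalized counts of the 8 genes in each of the 6 libraries, with a log axis of counts divided by the DESeq2 size factor, 1 point a library and the group mean as a bar. Krt7 at 282 to 383 in shBrca2 and 121 to 161 in shControl is the gene whose groups are clearly apart, whereas for the other genes the groups overlap or, for Krt18, nearly touch.

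Krt7, the type II keratin that accompanies Krt8 in ductal epithelium, was the member that differed most between the groups. It had 383, 351 and 282 normalized counts in replicates 1, 2 and 3 of shBrca2 and 121, 156 and 161 in those of shControl, from raw counts of 281, 371, 324 and 120, 186, 163. The lowest shBrca2 library was above the highest shControl library. The means were 338 ± 51.5 (SD, n = 3) and 146 ± 21.7 (SD, n = 3), a 2.31-fold difference. On the log2 scale this was 1.21 ± 0.20 (SE), with a 95% interval of 0.82 to 1.60. Its coefficient of variation was 15.2% in shBrca2 and 14.9% in shControl, where counting alone at its mean gives 6.44%. Leaving out each library in turn kept the log2 fold change between 1.09 and 1.33, and without the shControl library 3 it was 1.28.

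A gene was called when the DESeq2 likelihood ratio test gave an adjusted p under 0.1, the absolute log2 fold change was over 0.5 and the mean normalized count over 5. Of the 9997 genes with an adjusted p, 1.27% were called, which were 77 genes higher and 50 lower in shBrca2, and those called higher made up 0.770%. Krt7 was the only one of the 8 members called, in the higher direction. Since the members were chosen with this comparison known, nothing is read from that count. The groups did not overlap for 2 of the 8 members, Krt7 and Krt18, against 20.3% of all genes in the table. The median log2 fold change of the 8 members was -0.06, and over all genes with an adjusted p it was -0.00094.

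Krt7 is itself 1 of the ductal markers, as are the members Krt8, Krt18 and Krt19. The summed level of these markers was 22038 to 23001 normalized counts in shBrca2 and 23168 to 27203 in shControl. Most of that sum came from the member keratins and Spp1, so it is not a readout separate from the members. Of the markers in the table that are not keratins, Sox9 alone was called. Sox9, a transcription factor of ductal cells named here after its values were seen, was higher in shBrca2, with means of 71.9 ± 19.04 and 31.5 ± 9.54 normalized counts (SD, n = 3 each), groups that did not overlap, and a log2 fold change of 1.20 ± 0.34 (SE; DESeq2 adjusted p = 0.0391). Its call was lost without the shBrca2 libraries 2 and 3 (DESeq2 adjusted p = 0.151 and 0.640) and without the shControl libraries 1 and 2 (DESeq2 adjusted p = 0.187 and 0.462). Spp1, the secreted protein osteopontin, had means of 5369.8 and 6775 with overlapping groups (log2 fold change -0.34, DESeq2 adjusted p = 0.571). Muc1, Epcam and Cdh1 had log2 fold changes of -0.25, -0.55 and 0.32 and were not called. The part of ductal state in the Krt7 difference was not tested.

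Krt8 and Krt18, the main pair of simple epithelia, had slightly lower means in shBrca2, and neither was called. Krt8 had 3092, 2641 and 2492 normalized counts in shBrca2 and 3764, 2745 and 2723 in shControl. The groups overlapped, and the high value of the shControl library 1 carried most of the difference in the means, 2742 ± 312 and 3077 ± 595 (SD, n = 3 each). Its log2 fold change was -0.17 ± 0.16 (SE), with a 95% interval of -0.49 to 0.15, and 0.0019 without that library. Krt18 had 8219, 9328 and 8854 normalized counts in shBrca2 and 9328, 9370 and 10005 in shControl. Every shControl library was above every shBrca2 library, but the gap was 0.062 normalized counts, and on CPM, which scales counts by the library total alone, the highest shBrca2 value, 4498, was above the lowest shControl value, 4402. The Krt18 means were 8800 ± 556 and 9568 ± 379.5 (SD, n = 3 each), and the log2 fold change was -0.12 ± 0.13 (SE), with a 95% interval of -0.37 to 0.12.

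Krt19, the smallest keratin and the usual ductal marker, had 4669, 4091 and 3655 normalized counts in shBrca2 and 3972, 4267 and 4707 in shControl. The groups spanned nearly the same range, and the log2 fold change was -0.06 ± 0.14 (SE) with a 95% interval of -0.34 to 0.22. Krt20, a type I keratin of gut-type epithelium, had 567, 424 and 505 normalized counts in shBrca2 and 538, 533 and 478 in shControl. Its highest and lowest libraries were both of shBrca2, and its log2 fold change was -0.05 ± 0.16 (SE; 95% interval -0.37 to 0.27). Krt23 had 486, 534 and 499 normalized counts in shBrca2 and 491, 513 and 536 in shControl. It varied the least in shBrca2, with a coefficient of variation of 4.90%, against 4.37% from counting alone, and its log2 fold change was -0.02 ± 0.15 (SE; 95% interval -0.31 to 0.27). Krt10 stood near the lower end with 35 to 51 raw counts a library. Its normalized counts were 47.7, 36.9 and 41.8 in shBrca2 and 51.5, 30.2 and 35.6 in shControl. At that depth the log2 fold change of 0.11 ± 0.34 (SE) had a 95% interval of -0.57 to 0.78, so that a difference of a size that would be called could not be told from none.

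Vim, the mesenchymal filament gene, had 7395, 8843 and 8845 normalized counts in shBrca2 and 9903, 9595 and 7967 in shControl. The groups overlapped because the shControl library 3 was below 2 of the shBrca2 libraries. The means were 8361 ± 837 and 9155 ± 1040.1 (SD, n = 3 each), and the log2 difference was -0.13 ± 0.14 (SE), with a 95% interval of -0.41 to 0.15, and it was -0.22 without the shControl library 3. The intervals of Krt8, Krt18, Krt19, Krt20, Krt23 and Vim all lay within 0.5 of 0 on the log2 scale. A p above a threshold does not show equal levels, and these intervals give the sizes of difference that remain possible.

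**Figure D2:**
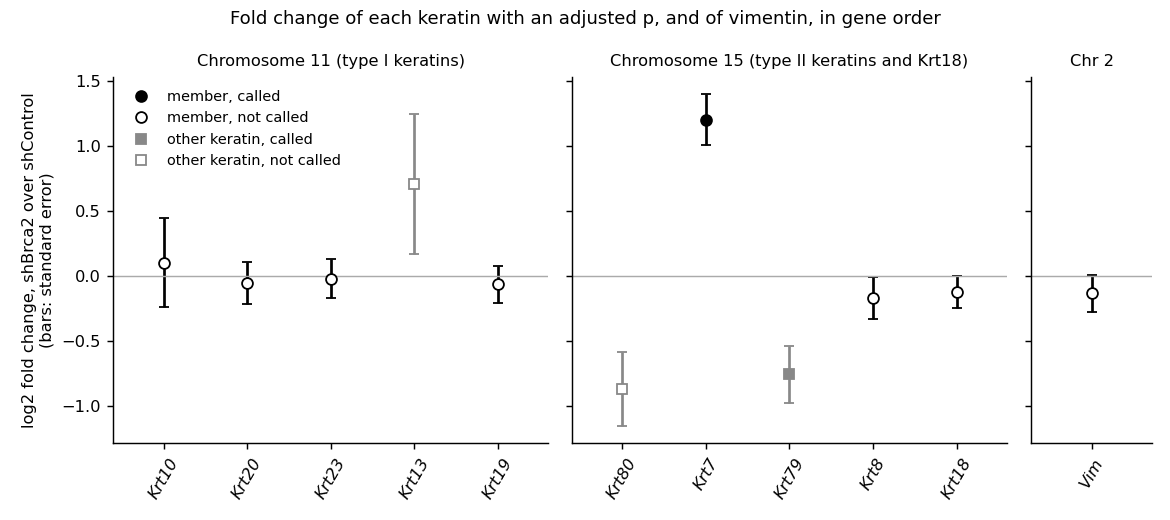
Log2 fold change (shBrca2 over shControl, bars are standard errors) of each keratin with an adjusted p and of Vim, in order along chromosomes 11, 15 and 2, with circles for the 8 members, squares for other keratins and filled symbols for called genes. Krt7 at 1.21 is above 0, Krt79 at -0.76 and Krt80 at -0.87 are below it in the same cluster, and Krt8 and Krt18, also there, are near 0.

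The make-up of the keratin mRNA pool differed in its type II part. Krt7 was 11.02%, 11.7% and 10.2% of the summed Krt7 and Krt8 counts in shBrca2 and 3.12%, 5.38% and 5.59% in shControl. The groups did not overlap, and the closest exact binomial 95% intervals, which cover counting error only, were 9.14% to 11.3% in shBrca2 and 4.78% to 6.48% in shControl. This share is built from the Krt7 difference and does not stand as separate evidence for it. The ratio of summed type I to summed type II counts was 4.03, 4.82 and 4.89 in shBrca2 and 3.70, 5.07 and 5.46 in shControl. In both groups library 1 had the lowest ratio, and the means of 4.58 ± 0.478 and 4.75 ± 0.926 (SD, n = 3 each) differed by less than the spread. The 7 keratins together took 0.844%, 0.839% and 0.796% of all counts in shBrca2 and 0.862%, 0.856% and 0.923% in shControl. Every shBrca2 library was below every shControl library, by 0.939-fold in the means of 0.826 ± 0.0266% and 0.880 ± 0.0369% (SD, n = 3 each). The closest libraries were within counting error of each other, with exact binomial 95% intervals of 0.829% to 0.859% in shBrca2 and 0.845% to 0.868% in shControl. Vim took 0.405 ± 0.0413% and 0.443 ± 0.0419% of all counts (SD, n = 3 each), with overlapping groups. The count of Vim per Krt18 count was 0.900, 0.948 and 0.999 in shBrca2 and 1.06, 1.02 and 0.796 in shControl, so the shControl libraries spanned both sides of the shBrca2 libraries.

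**Figure D3:**
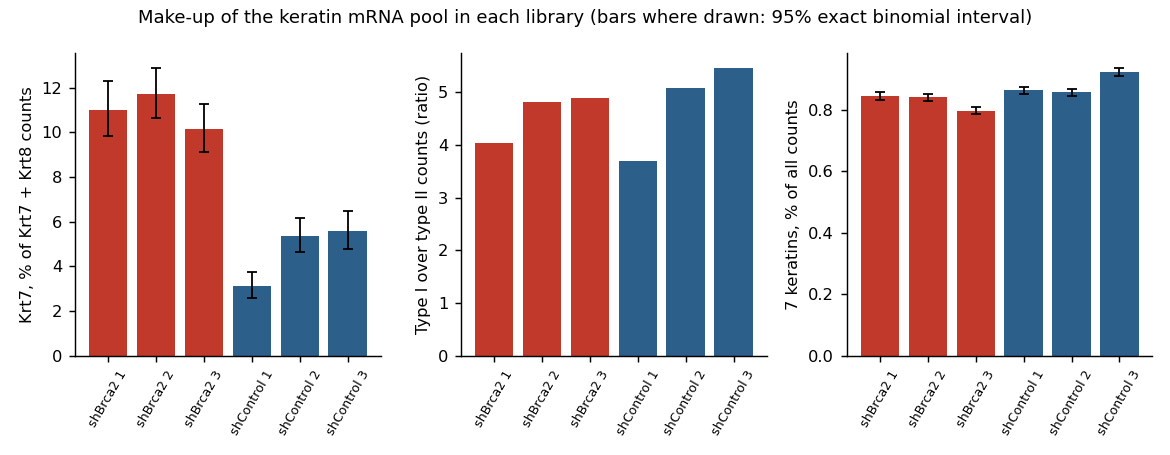
Per library, from left to right, Krt7 as a percent of Krt7 plus Krt8 counts, the ratio of type I to type II keratin counts, and the 7 keratins as a percent of all counts, with 95% exact binomial intervals as bars on the shares. Krt7 makes up 10.2% to 11.7% of the type II counts in shBrca2 and 3.12% to 5.59% in shControl, while the ratio of the types overlaps between the groups.

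Another 8 keratins were in the table, all with a lower mean than Krt7, and 3 of them had enough counts for an adjusted p, of which 0 were called higher and 1 lower. The called gene, Krt79, a type II keratin known from sebaceous and hair follicle ducts, had 74, 92 and 112 raw counts in shBrca2 and 157, 219 and 139 in shControl. Its normalized means were 95.1 ± 7.22 and 160 ± 23.1 (SD, n = 3 each), the groups did not overlap, and the log2 fold change was -0.76 ± 0.22 (SE; DESeq2 adjusted p = 0.0651). The call held without the shControl library 3 (DESeq2 adjusted p = 0.0716) and was lost without any of the other 5 libraries. The DESeq2 adjusted p was then 0.148, 0.228 and 0.283 without the shBrca2 libraries 1, 2 and 3, and 0.136 and 0.554 without the shControl libraries 1 and 2. Krt80, another type II keratin of epithelia, had normalized means of 58.8 ± 17.8 and 106 ± 19.8 (SD, n = 3 each) and groups that did not overlap, but a DESeq2 adjusted p of 0.153. Krt13, a type I keratin of squamous mucosa, had means of 18.1 ± 6.11 and 10.9 ± 0.819 (SD, n = 3 each; DESeq2 adjusted p = 0.829).

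The remaining 5 keratins were at a few counts and had no adjusted p. Krt76, a type II keratin of oral epithelium, had 8, 9 and 5 raw counts in shBrca2 and 1, 1 and 0 in shControl, and Krt6a, a type II keratin of stressed and wounded epithelium, had 4, 7 and 6 against 1, 2 and 0. Against a floor of 3 counts per shControl library, the shBrca2 means were 2.79-fold and 2.03-fold of the floor, with no call. The 95% intervals of their log2 fold changes were wide, 1.04 to 6.26 and 0.17 to 5.12. Each gene in the table reaches at least 6 counts in some library, and Krt76 and Krt6a do so only in shBrca2. Low shControl counts beside higher shBrca2 counts partly follow from that, so nothing is read from their difference. Krt36, Krt39 and Krt78 had 0 to 7 counts in any library and overlapping groups. Groups were apart for 4 of the 8, against 20.3% of all genes, with Krt76 and Krt6a higher and Krt79 and Krt80 lower in shBrca2. The former pair rests on a few counts and is in the table only through shBrca2. The chromosome 15 cluster held 8 keratins of the table over 683.7 kb, 1 of them called higher and 1 lower, and the chromosome 11 cluster held 7 over 760.7 kb with 0 called.

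Genes of other intermediate filaments and of filament linkers and anchors gave 0 calls. Over all genes with an adjusted p, 1.27% were called, so lists this short would often hold 0, and nothing is read from that count. Of 15 other intermediate filament genes 6 were in the table and 5 had an adjusted p, 0 were called by DESeq2 and 0 by edgeR, 0 had an unadjusted p under 0.05, and the median log2 fold change was -0.18. The nuclear lamina genes Lmna, Lmnb1 and Lmnb2 were the most abundant, with log2 fold changes of -0.17, -0.36 and -0.32 and DESeq2 adjusted p of 0.889, 0.695 and 0.789. Of 18 linker and junction genes 15 were tested, 0 were called by DESeq2 and 0 by edgeR, 2 had an unadjusted p under 0.05, and the median was -0.0027. The share of all genes with an unadjusted p under 0.05 was not computed, so nothing is read from the 2. Plec, the plakin that ties intermediate filaments to hemidesmosomes and actin, had means of 868 and 1172 normalized counts with groups that did not overlap, and a log2 fold change of -0.43 ± 0.16 (SE; DESeq2 adjusted p = 0.283). Itga6, the hemidesmosomal integrin subunit, had means of 671 and 520.1 with groups that did not overlap, and a log2 fold change of 0.37 ± 0.17 (SE; DESeq2 adjusted p = 0.489). Perp, a desmosomal membrane protein, had a log2 fold change of -0.0045 (DESeq2 adjusted p = 0.990).

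Keratins and vimentin are often read as marks of an epithelial or a mesenchymal state, and genes of both states were set beside them. Of 19 epithelial genes 11 were in the table and 9 were tested, 0 were called by DESeq2 and 0 by edgeR, 0 had an unadjusted p under 0.05, and their median log2 fold change was 0.21. Of the 9, 5 were above 0 and 4 below it. That median was the value of Tjp1, a gene with 18 to 174 raw counts a library and an SE of 1.00. Cdh1, the adherens junction cadherin, had means of 1012 and 811 (log2 fold change 0.32, DESeq2 adjusted p = 0.690). Spint2, a membrane protease inhibitor, and Elf3, an epithelial transcription factor, had log2 fold changes of 0.26 and 0.27 (DESeq2 adjusted p = 0.781 and 0.816). Of 19 mesenchymal genes 15 were in the table and 14 were tested, with 2 called lower and 0 higher, and a median log2 fold change of -0.19. Over all genes with an adjusted p, 1.27% were called. In the mesenchymal list 10 genes were below 0 and 4 above it. The latter were Snai2, Loxl2, Twist2 and Zeb1, with log2 fold changes of 0.99, 0.83, 0.55 and 0.46 and no call.

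Fn1, the matrix protein fibronectin, fell from 317 to 171 normalized counts (log2 fold change -0.89 ± 0.18, SE; DESeq2 adjusted p = 0.000524) and was called in 6 of 6 fits that left out a library. Axl, a receptor tyrosine kinase, fell from 647 ± 104.5 to 418 ± 42.1 (SD, n = 3 each; log2 fold change -0.63, DESeq2 adjusted p = 0.0290). Its call was lost in edgeR (adjusted p = 0.108) and without 4 of the libraries, with DESeq2 adjusted p of 0.248 and 0.152 without the shBrca2 libraries 1 and 2 and of 0.180 and 0.236 without the shControl libraries 1 and 2. Vim, on the same side of 0 as these genes, had the -0.13 given above and was not called.

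**Figure D4:**
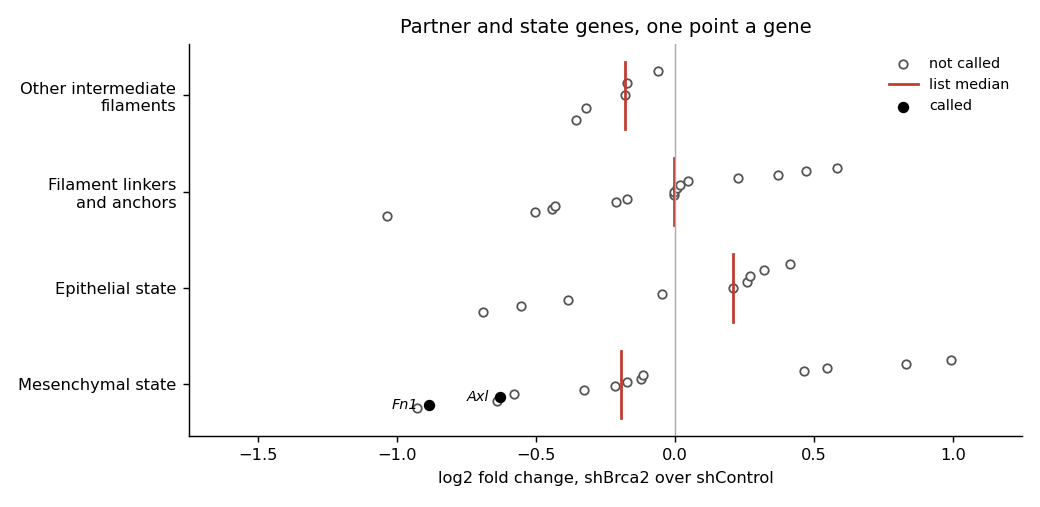
Log2 fold change (shBrca2 over shControl) of each gene with an adjusted p in 4 lists of partner and state genes, 1 point a gene, filled where called, with the list median as a red line. The 2 called genes, Fn1 and Axl, are both mesenchymal state genes below 0, and the other lists hold open points on both sides of 0 except the other intermediate filaments, whose 5 points are all below it.

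Genes whose pattern over the 6 libraries was most like that of Krt7, Krt19 and Vim were ranked by the root mean square difference of log2(normalized count + 1), each gene centred on its own mean, among 5680 genes with a mean of at least 50 normalized counts. Nearest to Krt7 was Akr1c13 at 0.080, an aldo-keto reductase with 151, 136 and 108 normalized counts in shBrca2 and 47.5, 65.4 and 72.2 in shControl. Its close paralog Akr1c12 at 0.18, the water channel gene Aqp5 at 0.20 and the interleukin-1 receptor antagonist gene Il1rn at 0.20 followed, against a median of 0.67 over all genes. Reads of Akr1c12 and Akr1c13 may be split between them. Krt8, Krt18, Krt19, Krt20, Krt23 and Vim ranked from 2162 to 4036 of the 5680 in likeness to Krt7, and Krt10, with a mean under 50, was not ranked. Nearest to Krt19 were Lemd2, Polr2e, Zfp1 and Cib1 at 0.024, 0.028, 0.042 and 0.042, and nearest to Vim were Kidins220, Srpk1, Man1b1 and Tle3 at 0.049, 0.058, 0.060 and 0.060. The median distance over all genes was 0.24 to Krt19 and 0.25 to Vim. Genes that vary little are near to each other by this measure, and the 6 libraries are its only points. The distance to Krt7 depends largely on the difference between the groups. Akr1c13, Akr1c12, Aqp5 and Il1rn had log2 fold changes of 1.09, 1.13, 1.34 and 0.88, so likeness to Krt7 does not stand as separate evidence.

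**Figure D5:**
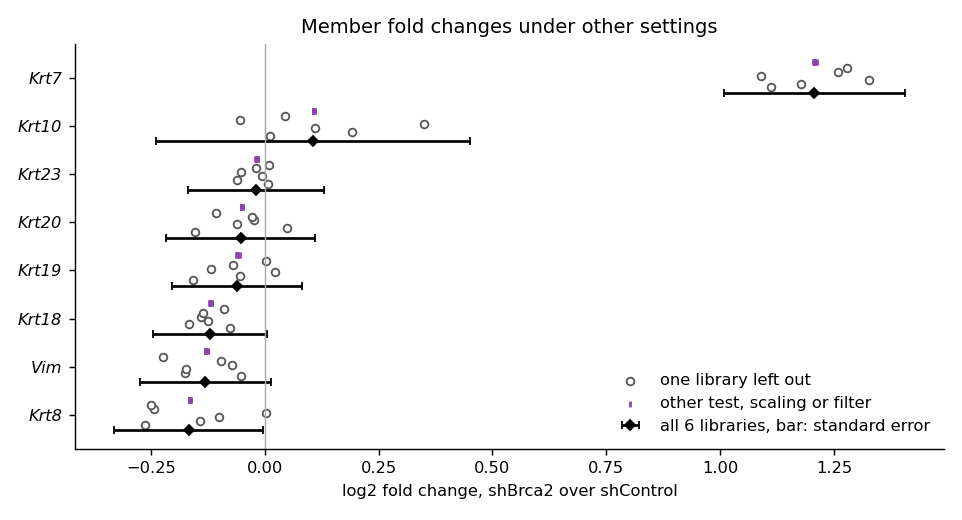
Log2 fold change (shBrca2 over shControl) of the 8 members under the test used here, under other tests, scalings and filters, and with each library left out. Krt7 stays between 1.09 and 1.33 while the other members stay near 0, and Krt8, Krt10, Krt19, Krt20 and Krt23 change sign when some libraries are left out.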

How the data were processed

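RNA of sorted KPC cells was made into 3′ libraries after oligo(dT) capture and sequenced by the authors on an Illumina NextSeq. The authors deposited 1 table of raw counts per gene for 6 libraries, and the submitters' processing notes name bcl2fastq, cutadapt, STAR 2.4.2a, HTSeq, DESeq2 and the build mm10. Annotation, strand use and molecular identifiers are not given in the sources used here. Each gene in the table reaches at least 6 counts in some library. The authors' counts were fitted over all 10616 genes with the DESeq2 1.42.0 likelihood ratio test in R 4.3.3, group against intercept, as in the study's methods, and 619 genes were left without an adjusted p by independent filtering. Calls needed a mean normalized count above 5, a log2 fold change beyond 0.5 in size and, after Benjamini-Hochberg adjustment, a p below 0.1. Alternatives were edgeR 4.0.16 quasi-likelihood, DESeq2 Wald, TMM and total-count scaling, count filters, stricter and looser thresholds, ribosomal or keratin genes left out, and each library left out. The DESeq2 likelihood ratio fit was also run on simulated counts, and the outcome of that run is not given here.

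The members and the gene lists were chosen with earlier results of these data known, and 1 gene of the mesenchymal list and 1 ductal marker are not reported here. Named genes were the members, every other keratin, the called genes of each list or, with fewer than 2 called, its most abundant genes up to 3 in all, the 4 nearest genes to Krt7, Krt19 and Vim, and Brca2. Tjp1, whose value was the median of its list, and the mesenchymal genes above 0 were named as well. Promoters and coordinates were taken from RefSeq tables of GRCm38.p6, in which 8 of 8 members and 10576 of 10616 symbols matched. Libraries were numbered within groups in accession order. Depth per library limits precision as given with each value, and binomial intervals cover counting error only.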

Additional observations from a re-analysis of the deposited data

How the results depend on the processing

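The count of called genes, 127 over all genes, ranged from 47 (without the shBrca2 library 3) to 140 (without the shControl library 1) when a library was left out, with 81 without the shBrca2 library 1 and 55 without the shControl library 2. It lay within 1.5 times of 127 under the other 10 settings. The count of members called was 1 throughout. The call among the other keratins, Krt79, went from 1 to 0 at an adjusted p under 0.05 and ranged from 0 to 1 with a library left out. The calls among mesenchymal genes, 2, went to 1 in edgeR and ranged from 1 to 2 with a library left out. Member fold changes near 0 turned sign with a library left out: Krt8 ranged from -0.26 to 0.0019 (without the shControl library 1), Krt10 from -0.055 (without the shControl library 2) to 0.35, Krt19 from -0.16 to 0.022 (without the shBrca2 library 3; 0.0036 without the shControl library 3), Krt20 from -0.15 to 0.050 (without the shBrca2 library 2) and Krt23 from -0.061 to 0.010 (without the shControl library 3; 0.0066 without the shBrca2 library 1). At a few counts each, Krt36 ranged from -0.38 to 0.21 (0.087 without the shBrca2 library 3), Krt39 from -0.47 to 0.59 (-0.26 without the shControl library 3) and Krt78 from -0.70 to 0.32 (0.25 without the shBrca2 library 1). With ribosomal protein genes left out, the keratin share of counts was 0.928% in shBrca2 and 0.988% in shControl, because the total is smaller. Other scalings, tests and filters kept the log2 fold change of Krt7 between 1.20 and 1.21. No paired analysis was possible because the labels give no replicate numbers. Depth limits the 5 rarest keratins, which had no adjusted p, and widens the interval of Krt10.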
